A study of Rattus norvegicus with 4 samples.

Results

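Pthlh/Kit interneurons are a rare class of GABAergic neuron in the rat nucleus accumbens, and 183 of 26228 sequenced nuclei (0.698%) were assigned to it. The members were chosen by raw counts of unique molecular identifiers (UMIs, one per captured RNA molecule) in single nuclei with at least 200 genes. Each member held at least 3 UMIs of Kit and Pthlh together and at least 1 of Gad1 and Gad2 together. It held at most 2 of Sst, at most 1 of Drd2 and Ebf1 together and at most 4 of Grm8. The first limit left 206 nuclei, and the other 4 limits reduced them to 201, 199, 187 and 183 in turn. The levels of these 8 genes in the members therefore follow from the choice and are given without tests.

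The nuclei came from adult Sprague-Dawley rats of 90 to 120 days with no genetic change named in the labels. Intraperitoneal injections, of cocaine (20 mg per kg) in one group and of saline alone in the other, were given daily for 7 days, and accumbens tissue was taken 1 hour after the final injection. Each of the 4 libraries pooled punches of 2 mm from 4 rats of one sex and treatment, so that every group of 2 libraries held 1 female pool and 1 male pool, 16 rats in all. The punches were centred on the accumbens core, and nuclei were stained with 7-AAD and sorted before loading. The study asks how accumbens neurons, in particular D1 medium spiny neurons, respond to repeated cocaine.

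Striatal interneurons are a small minority beside the spiny projection neurons, yet they shape the firing of those neurons through local GABA release. Fast-spiking interneurons, the class to which Pthlh-positive nuclei are usually assigned, derive from the medial ganglionic eminence, carry Kv3 potassium channels and can express parvalbumin along a gradient. Pthlh encodes parathyroid hormone-related peptide, a secreted ligand, and Kit encodes the receptor tyrosine kinase for stem cell factor. Pvalb is not among the symbols used here, so its level is not reported.

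The libraries held 6213 to 7265 nuclei and 31484217 to 40737786 UMIs. Median UMIs per member nucleus were 8900 (8899.5) in the saline female library and 6374 to 6442.5 in the other 3. Pairs of libraries shared 10 to 18 cell barcodes, and 1 shared barcode belonged to a member. Removal of the nuclei with the highest doublet scores would have taken 3 of the 183 members. In the members, the summed levels of 6 oligodendrocyte genes were uneven, at 304 and 76.9 CPM (UMIs of a gene relative to all UMIs of the same nuclei) in saline females and males and 79.5 and 460 CPM in cocaine females and males. The part of this difference in the results below was not tested. The 5 glutamatergic markers, Vip, Chat and Chodl were at 0 UMIs in the members of every library.

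The rule genes reached similar levels in all libraries. Kit stood at 506 CPM in the saline female library, 481 in cocaine female, 493 in saline male and 494 in cocaine male. Pthlh stood at 194, 156, 208 and 194 CPM in the same order. In spiny neurons (5162 nuclei with at least 3 UMIs of Drd2 and Ebf1 together, and therefore not all spiny neurons) Kit averaged 0.379 ± 0.125 CPM and Pthlh 0.4 ± 0.195 CPM (SD, n = 4 libraries of both treatments). In Sst/Npy interneurons (177 nuclei with at least 3 UMIs of Sst) the averages were 11.7 ± 4.61 and 1.02 ± 2.03 CPM. Both comparison sets were limited to fewer than 3 UMIs of Kit and Pthlh together. Their low levels of these genes therefore also follow from the choice.

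Most of the members also went with the label on 3 marker genes that the rule did not use. These markers were listed with earlier results of these data known, so their levels are a description and no independent check. Il1rapl2, an IL-1 receptor accessory protein-like membrane protein, stood at 7591 CPM in the saline female, 6380 in the cocaine female, 8063 in the saline male and 6590 in the cocaine male members. Its mean was 61.1 ± 14.4 CPM in spiny neurons and 145 ± 73.5 CPM in Sst/Npy interneurons. All 4 member values thus lay far above every value of the other classes. Col19a1, a non-fibrillar collagen gene, averaged 687 ± 101 CPM in the members against 7.18 ± 1.05 in spiny neurons and 77.3 ± 71.7 in Sst/Npy interneurons. Galnt14, a transferase that starts mucin-type O-glycosylation, averaged 629 ± 78.5 CPM in the members and 244 ± 55.4 CPM in Sst/Npy interneurons, the smallest gap of the 3.

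Few nuclei of a class that should lack Il1rapl2 had a UMI of it. The gene was seen in 172 of 183 members (94.0%, median 7276 UMIs) and in 0.864% of 6363 oligodendrocytes (median 1793 UMIs). After thinning to 1500 UMIs per nucleus, which left out 1906 oligodendrocytes and no member, the shares were 94.0% and 0.763%. Lhx6, a transcription factor of interneurons from the medial ganglionic eminence, was seen in 38 of 183 members.

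**Figure D1:**
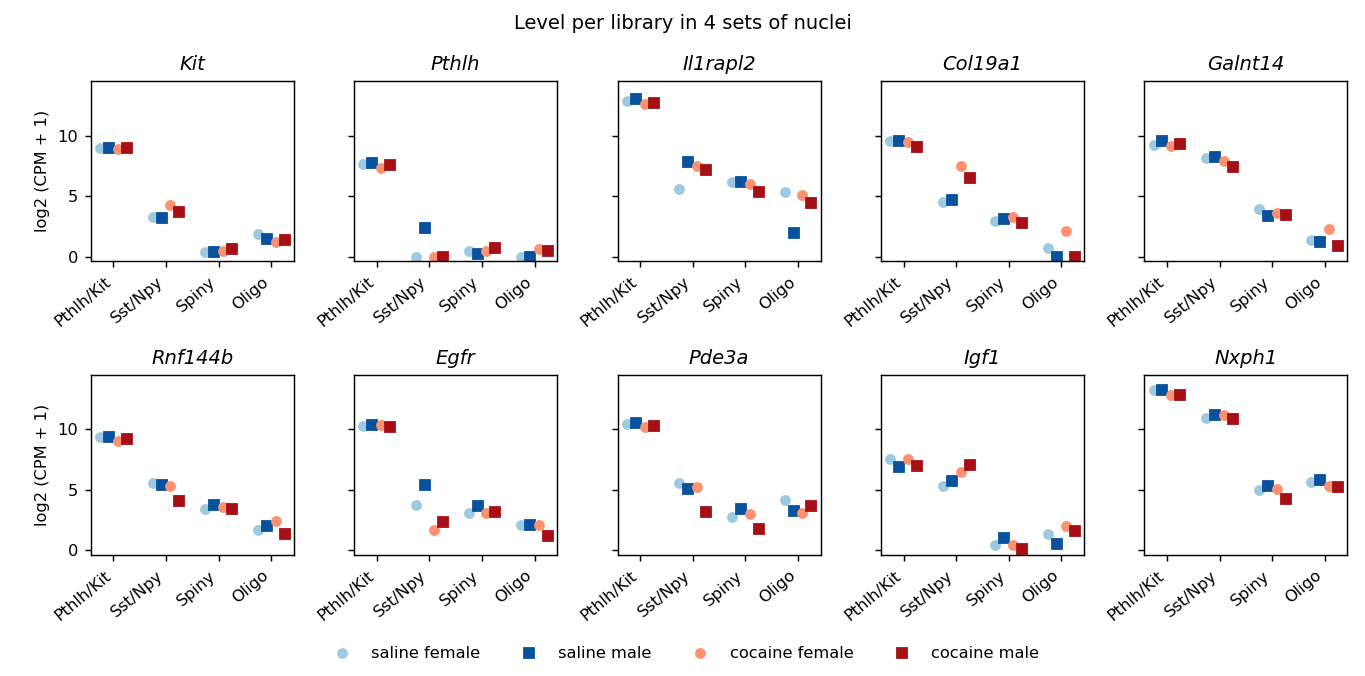
Level of 10 genes as log2 (CPM + 1) in 4 sets of nuclei, with a point for each library (circles female, squares male, blue saline, red cocaine). Kit and Pthlh were used by the rule and were limited in the choice of the other sets. Il1rapl2 lay between 6380 and 8063 CPM in the members, and Nxph1 and Igf1 were also present in Sst/Npy interneurons.

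Ranked by the ratio of the mean in members to the mean in all other nuclei, among genes with at least 50 CPM in the members of every library, the 20 leading genes included ligands, receptors, signalling enzymes and transcriptional regulators. Each had a ratio of at least 13.9, and since the members were chosen by expression these ratios are descriptions without a test. Several encode secreted proteins. Igf1, the insulin-like growth factor, averaged 155 ± 39.4 CPM in the members and 77.9 ± 41.4 CPM in Sst/Npy interneurons. Igfbp4, which binds insulin-like growth factors, had the highest ratio of all, 65.0, at 130 ± 26.9 CPM. Pdgfd, a platelet-derived growth factor, and Ccbe1, which takes part in VEGF-C processing, averaged 88.6 ± 18.1 and 505 ± 81.5 CPM. Pdgfd was at 0 UMIs in Sst/Npy interneurons of every library. The extracellular genes Vwc2 and Hapln1, the latter a link protein of the perineuronal net, averaged 535 ± 95.2 and 88.9 ± 34.7 CPM.

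Among receptors and their signalling partners, Egfr averaged 1261 ± 78.1 CPM in the members, 8.64 ± 1.94 in spiny neurons and 14.9 ± 17.7 in Sst/Npy interneurons. Pde3a, a cyclic nucleotide phosphodiesterase, averaged 1343 ± 149 CPM in the members and 30.8 ± 16.3 CPM in Sst/Npy interneurons. Gna14, a G protein alpha subunit of the Gq family, averaged 169 ± 61.7 CPM. Egfr and Pde3a were thus low in both comparison classes. Nxph1, a secreted ligand of alpha-neurexins, differed less, at 8591 ± 1369 CPM against 2107 ± 249 CPM in Sst/Npy interneurons. Kcnip1, a Kv4 channel partner, averaged 2452 ± 288 CPM against 399 ± 76.6 CPM in Sst/Npy interneurons. The other leading genes named here were Rnf144b, Slc9b1, Moxd1 and Tle2, beside Col19a1, Il1rapl2 and Galnt14.

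Transcription factors of interneurons showed a graded pattern. Sox6 averaged 876 ± 112 CPM in the members, below the 2626 ± 311 CPM of Sst/Npy interneurons and above the 19.8 ± 6.34 CPM of spiny neurons. Zeb2 averaged 822 ± 195 CPM in the members against 67.9 ± 58.1 in Sst/Npy interneurons, and Etv1 averaged 455 ± 80.4 against 23.3 ± 23.0 CPM. St18 (250 ± 35.6 CPM) and Prox1 (77.5 ± 11.6 CPM) averaged at most 6.91 CPM in Sst/Npy interneurons. Lhx6 was lower in the members, at 28.7 ± 10.8 CPM, than in Sst/Npy interneurons, at 117 ± 26.2 CPM. Meis2, a factor abundant in spiny neurons at 1590 ± 20.6 CPM, averaged 5.78 ± 3.61 CPM in the members.

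Channel and receptor genes differed in both directions, and those named here were singled out after their values were seen. Kcnc1 and Kcnc2, which encode Kv3 channels, averaged 498 ± 57.2 and 1463 ± 127 CPM in the members. In Sst/Npy interneurons they averaged 171 ± 35.9 and 793 ± 236 CPM, and in spiny neurons 86.5 ± 6.87 and 24.1 ± 11.2 CPM (86.55 before rounding for Kcnc1). Erbb4, the neuregulin receptor, averaged 13989 ± 857 CPM against 1603 ± 399 and 358 ± 27.6 CPM in the same classes. Gria4, an AMPA receptor subunit, averaged 4649 ± 194 CPM against 911 ± 206 and 860 ± 30.03 CPM. Other genes of these kinds were lower in the members. Grm7, a metabotropic glutamate receptor, averaged 145 ± 78.3 CPM against 2605 ± 65.9 CPM in spiny neurons, and Cacna2d3, a calcium channel subunit, averaged 106 ± 71.9 against 3057 ± 129 CPM.

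Genes of the extracellular matrix and of neuromodulation were likewise mixed. Hapln4 (62.9 ± 15.7 CPM), Bcan (84.8 ± 9.78 CPM), Vcan (88.7 ± 18.8 CPM) and the protease gene Adamts15 (40.8 ± 14.4 CPM) averaged at most 12.4 CPM in spiny and Sst/Npy neurons. The basement membrane collagens Col4a1 and Col4a2 averaged 19.9 and 39.8 CPM in the members against 24.4 and 70.5 CPM in Sst/Npy interneurons. Acan, the main proteoglycan of mature perineuronal nets, averaged only 2.97 ± 3.52 CPM. The cannabinoid receptor gene Cnr1 averaged 252 ± 60.4 CPM against 40.0 ± 11.6 CPM in Sst/Npy interneurons. Tacr1, the substance P receptor gene, showed the opposite order, at 17.5 ± 7.21 CPM in the members and 777 ± 71.4 CPM in Sst/Npy interneurons. Of the receptors for PTHrP, Pth1r was near 0 in the members (0.865 ± 1.73 CPM), and the related Pth2r averaged 52.3 ± 7.92 CPM.

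The members were not uniform. Of the 183 nuclei, 121 (66.1%) held UMIs of both Kit and Pthlh, 58 held Kit without Pthlh and 4 held Pthlh without Kit. A group of 13 nuclei held 10 or more UMIs of Adarb2 (18 to 131 UMIs, median 39), a gene of the ADAR deaminase family that marks interneurons of the caudal ganglionic eminence in cortex. These 13 nuclei carried 603 of the 640 Adarb2 UMIs of all members, and none of them had a Pthlh UMI. All 11 members without any Il1rapl2 UMI were among them, whereas each of the other 170 members had at least 4 Il1rapl2 UMIs (median 55, at most 180). On the summed level the 13 nuclei had 208 ± 347 CPM of Il1rapl2 and 38.2 ± 35.4 of Pde3a (SD over 4 libraries). They had 2511 ± 2858 CPM of Trpm3, 1154 ± 550 of Grik1, 1286 ± 308 of Sv2c and 617 ± 279 of Tox3. Their Kit level, 378 ± 38.1 CPM, placed them in the class by the rule, but the marker genes went against the label for these nuclei. They are called Adarb2-rich nuclei here. Among females, saline held 3 of them and cocaine 7, and among males saline held 2 and cocaine 1, and their median depth was 8454 UMIs against 7109.5 in the other members. The limit of 10 UMIs was chosen after the values were seen.

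**Figure D2:**
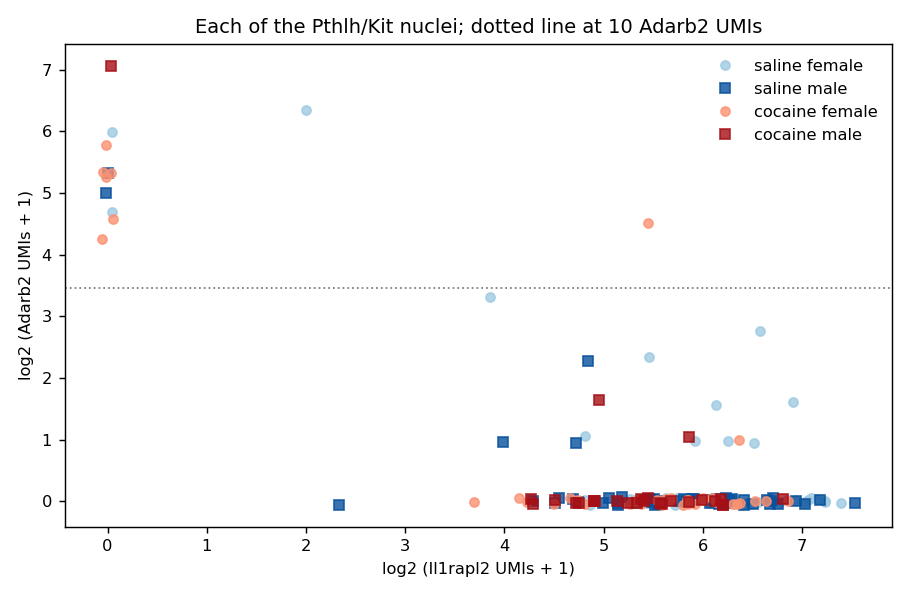
Each of the 183 member nuclei by its Il1rapl2 UMIs (x axis) and Adarb2 UMIs (y axis), both as log2 (UMIs + 1) with a small random shift, coloured by library. The dotted line marks 10 Adarb2 UMIs. Of the 13 nuclei above it, 11 had no Il1rapl2 UMI, and below it every nucleus had at least 4.

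The limit of 3 UMIs lay within a continuum. At exactly 3 UMIs of Kit and Pthlh there were 50 members, and 76 nuclei that met the other limits had 2. Il1rapl2 averaged 7605 ± 939 CPM in members above 3 UMIs, 5822 ± 308 in those at 3 and 4888 ± 1976 in the nuclei just outside. Adarb2 averaged 256 ± 388, 1242 ± 796 and 1385 ± 852 CPM in the same order.

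Clustering of the members alone gave 4 sub-clusters of 74, 48, 31 and 30 nuclei, numbered 0 to 3 and left without names. Leading genes are a description, because the same nuclei were clustered on them. Sub-cluster 2, whose leading genes included Brinp3, Ralyl, Grm7 and Cacna2d3, had Lhx8 in 14 of its 31 nuclei (122 CPM), while the other sub-clusters had 1 Lhx8 UMI in all. It was low in Col19a1 (101 CPM against 728 to 930 CPM). Sub-cluster 3, led by Slc7a11, Cadps2, Sema3a and Caln1, had no Adarb2 UMI. Adarb2 was concentrated in sub-clusters 1 (427 UMIs) and 2 (211 UMIs). Sub-cluster 2 took 14, 6, 6 and 5 nuclei from the saline and cocaine females and then the saline and cocaine males. Sub-cluster 3 took 10, 3, 12 and 5 in that order. These numbers are too small for a comparison.

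**Figure D3:**
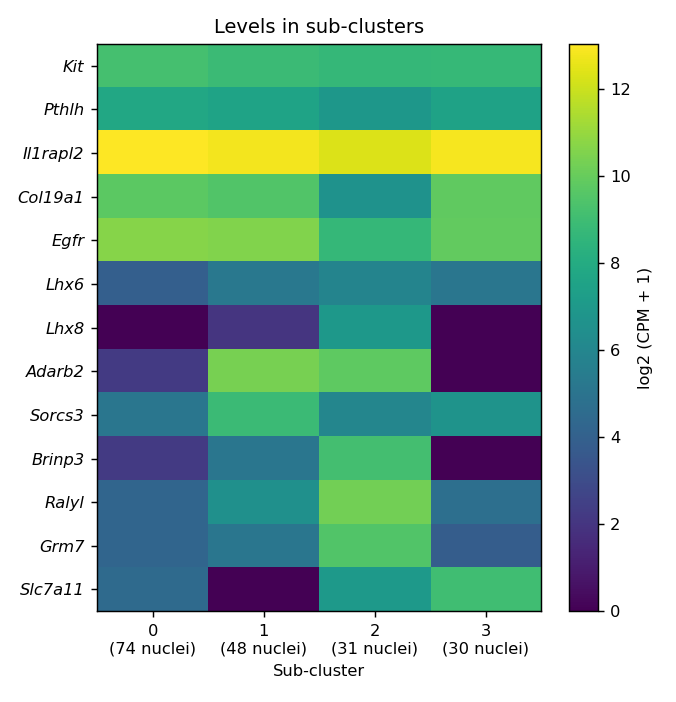
Level of 13 genes as log2 (CPM + 1) in the 4 sub-clusters of the members, from UMIs summed over all libraries. Lhx8, Brinp3, Ralyl and Grm7 were highest in sub-cluster 2, Slc7a11 in sub-cluster 3, and Adarb2 in sub-clusters 1 and 2.

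The share of nuclei that met the rule was lower in both cocaine libraries. It was 60 of 6375 nuclei (0.941%, exact 95% binomial interval 0.719 to 1.21%) in saline female and 40 of 7265 (0.551%, 0.394 to 0.749%) in cocaine female. It was 56 of 6213 (0.901%, 0.682 to 1.17%) in saline male and 27 of 6375 (0.424%, 0.279 to 0.616%) in cocaine male. The groups did not overlap, at 0.921 ± 0.0282% in saline and 0.487 ± 0.0898% in cocaine (SD, n = 2 libraries), a ratio of 1.89. The exact two-sided permutation test gave p = 0.333, the smallest value that 2 against 2 libraries allow. The direction was the same within each sex. The intervals cover counting error only, and UMIs of rare genes depend on depth. With every nucleus thinned to 3000 UMIs the shares were 0.444 and 0.409% in saline and 0.275 and 0.278% in cocaine, a ratio of 1.54. The ratio was 2.05 without the Adarb2-rich nuclei, and with Pthlh required in every nucleus it was 1.87. Its size depended on the limit for Kit and Pthlh, at 1.44 with a limit of 2 UMIs and 2.75 with a limit of 5. At exactly 2 UMIs, just outside the rule, there were 17 and 14 nuclei in saline females and males and 28 and 17 in cocaine females and males.

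The size of the difference varied with the genes that defined the class. Replacement of Kit and Pthlh by at least 5 UMIs of Egfr, Pde3a and Col19a1, a class added after the data were seen, gave 1.66 and 1.67% in saline and 1.5 and 1.08% in cocaine, a ratio of 1.29. That class of 388 nuclei held 91.3% of the members, which made up 43.0% of it. By the rule alone, fewer nuclei of the class and less Kit or Pthlh RNA per nucleus cannot be told apart. The added class's Adarb2 level was 997 to 1462 CPM per library. In that class Kit stood at 254, 185, 268 and 257 CPM and Pthlh at 106, 64.5, 122 and 124 CPM in the saline and cocaine females and then the saline and cocaine males. Neither gene passed the test between treatments there (edgeR adjusted p = 0.749 for Kit and 0.756 for Pthlh). The share of the Drd2/Ebf1 spiny nuclei differed little between treatments, at 19.7 ± 2.67% in saline and 19.8 ± 2.64% in cocaine (SD, n = 2 libraries). The Sst/Npy share was 0.408 and 0.660% in saline females and males and 0.909 and 0.690% in cocaine females and males, higher in cocaine (0.534 ± 0.178% against 0.799 ± 0.154%, exact permutation p = 0.333, the smallest possible).

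**Figure D4:**
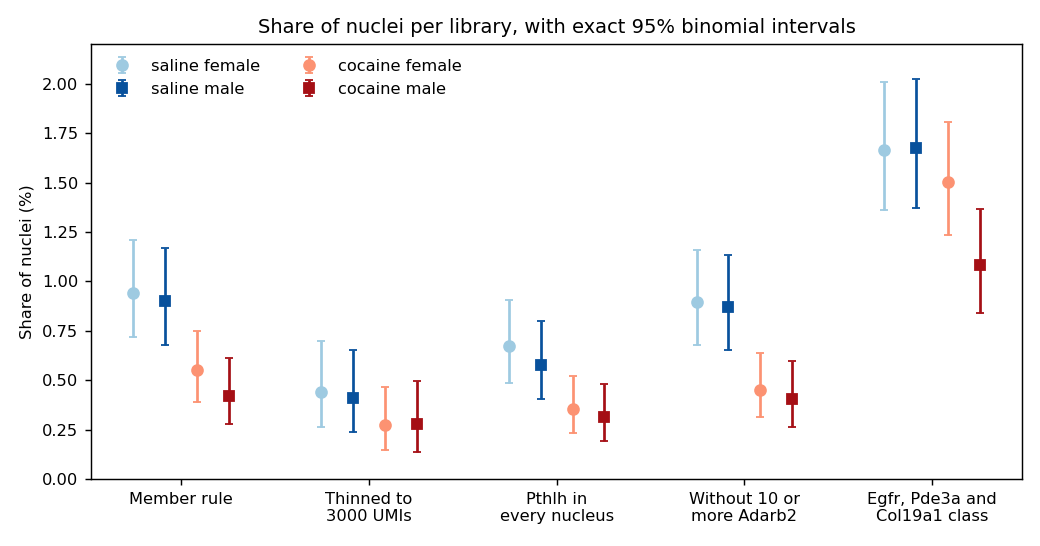
Share of nuclei in percent for each library under 5 definitions of the class, with exact 95% binomial intervals (blue saline, red cocaine, circles female, squares male). Both cocaine libraries lay below both saline libraries under each definition, by a ratio of 1.89 with the member rule and 1.29 for the Egfr, Pde3a and Col19a1 class.

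Cocaine was compared with saline on UMIs summed over the members of each library, with sex as a covariate. Of 5939 genes tested, 36 (0.606%) passed an adjusted p of 0.05 in edgeR's quasi-likelihood test, 17 higher (0.286%) and 19 lower (0.32%) in cocaine. None of the 8 genes of the rule was among them, and 395 genes had an unadjusted p under 0.05. The fit had 1 residual degree of freedom per gene, so the spread rests on 77.08 prior degrees of freedom shared across genes. The p-values therefore rest mostly on a spread shared across genes, and little on a gene's own spread between these 4 pooled libraries. DESeq2 called 2 genes, both higher, and edgeR with DESeq2's size factors called 6 higher and 2 lower. The 4 fits that left out 1 library had 1 library in a treatment and infinite prior degrees of freedom. A call kept or lost in them therefore does not measure a gene's own spread. Their calls were not all among the 36.

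The genes higher in cocaine were mostly those of the Adarb2-rich nuclei. Levels in this and the following comparisons are relative to the UMIs of the tested genes only and are scaled by TMM. They therefore differ from the CPM given above for the same genes. Trpm3, a cation channel gene, stood at 51.3 and 71.3 CPM in the saline female and male members and at 364 and 476 CPM in the cocaine female and male members. Its groups did not overlap, and its log2 fold change was 2.77 ± 0.24 (SE, adjusted p = 4.77e-15). Of its 232 UMIs, 187 lay in the 13 Adarb2-rich nuclei, and 1 nucleus held 60 of the 81 UMIs of the cocaine male library. Adarb2 itself stood at 385 and 211 CPM in saline and 859 and 787 CPM in cocaine (log2 1.46 ± 0.16, adjusted p = 3.89e-10), and 131 of the 134 UMIs of the cocaine male members came from 1 nucleus. With 1 library left out, the log2 fold change was 2.52 to 2.99 for Trpm3 and 1.08 to 1.95 for Adarb2.

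Grik1, a kainate receptor subunit gene, stood at 81.0 and 60.3 CPM in saline and 474 and 99.9 CPM in cocaine (log2 2.02 ± 0.27, adjusted p = 2.25e-07), with 79.0% of its UMIs (165 of 209) in the Adarb2-rich nuclei. The cocaine female library was high and the cocaine male library only slightly above saline, and without the cocaine female library the call was lost (log2 0.45). Sv2c, a synaptic vesicle protein gene, stood at 61.2 and 60.3 against 231 and 123 CPM (adjusted p = 0.000257), and Tox3, a transcription factor gene, at 21.7 and 19.2 against 136 and 52.9 CPM (adjusted p = 0.000619). Both calls were lost without the cocaine female library (log2 0.99 and 1.32). All 64 Tox3 UMIs came from Adarb2-rich nuclei. Foxp2, Egfem1, Cyct, Rgs6 and Lrp1b also passed, with log2 fold changes of 2.39, 1.61 (1.605), 1.77, 1.99 and 0.56. Foxp2, Egfem1 and Cyct lost their calls without either female library, and Rgs6 without saline females or without cocaine males. Lrp1b, a receptor of the LDL receptor family, was seen in 153 members, with 21.3% of its UMIs in the Adarb2-rich nuclei, and lost its call without either female library. Of the 17 higher genes, 14 had at least 30% of their UMIs in these nuclei, which held 7.91% of all member UMIs. Across all tested genes 58 of 5939 did.

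Without the Adarb2-rich nuclei the number of calls depended on the spread assumed for the fit. The refit of 170 nuclei called 0 of 5540 genes in edgeR, with 251 at an unadjusted p under 0.05. Its prior degrees of freedom fell to 6.75, at which Kdm5d and Eif2s3y, genes on the Y chromosome, also failed between the sexes (adjusted p = 0.308). With the prior degrees of freedom kept at 77.08, 1 gene was higher and 16 were lower. The higher gene was Hs3st2, a heparan sulfate sulfotransferase gene, which was among the 17, and 10 of the 16 lower genes were among the 19. Grik1 then had a log2 fold change of 0.60 (adjusted p = 0.792) and Lrp1b one of 0.29 (adjusted p = 0.514). Both refits were added after the data were seen.

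The genes lower in cocaine ranged from Ppargc1a, seen in all 183 members, to Cadps2 in 17 and Col25a1 in 13. Cadps2, which encodes a regulator of dense-core vesicle release and leads sub-cluster 3, had a log2 fold change of -2.21 (adjusted p = 0.0257) from 63 UMIs. Zeb2, a transcription factor of interneuron development, stood at 1007 and 1160 CPM in the saline female and male members and at 672 and 728 CPM in the cocaine female and male members. The groups did not overlap, with a log2 fold change of -0.62 ± 0.14 (adjusted p = 0.00696) and UMIs in 170 of 183 nuclei. Without the Adarb2-rich nuclei it was -0.62 (adjusted p = 0.0191 with the prior kept, 0.911 without). Neto1, which encodes an auxiliary protein of kainate and NMDA receptors, stood at 553 and 611 CPM in saline and 371 and 341 CPM in cocaine (log2 -0.69 ± 0.17, adjusted p = 0.0189). Slc8a1, a sodium-calcium exchanger gene, stood at 960 and 891 against 588 and 617 CPM (log2 -0.63 ± 0.14, adjusted p = 0.0103). In these 3 genes both cocaine libraries lay below both saline libraries. The same held for Nxph1, Tenm2, Chrm3, Ppargc1a, Hs3st4, Alcam and Il1rapl2, described below, but not for Col25a1. Most of these genes were chosen by adjusted p and by moving alike in both sexes. The separation is therefore a description and no further evidence, and its share among all tested genes is not given here. Zeb2 lost its call without cocaine females or without saline males, and Neto1 and Slc8a1 without any one library (log2 -0.79 to -0.65 and -0.69 to -0.58).

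For other lower genes the sexes contributed unequally. Hs3st4, another sulfotransferase gene of heparan sulfate, stood at 592 and 420 CPM in saline and 213 and 382 CPM in cocaine (log2 -0.84 ± 0.19, adjusted p = 0.0107), so that the male pair differed little. Chrm3, a muscarinic receptor gene, stood at 221 and 214 against 125 and 47.0 CPM (log2 -1.25 ± 0.27, adjusted p = 0.00671), with the larger fall in males. Of its 232 UMIs, 122 lay in sub-cluster 3, at 405 CPM against 69.8 to 197 CPM in the other sub-clusters. That sub-cluster took 10 and 12 nuclei from saline females and males and 3 and 5 from cocaine females and males. Its part in the fall was not tested. Alcam, an adhesion molecule gene, stood at 833 and 853 against 459 and 646 CPM (log2 -0.64 ± 0.15, adjusted p = 0.0126). Without the cocaine female library Hs3st4 and Alcam lost their calls (log2 -0.44 and -0.40), and without the cocaine male library Chrm3 did (-0.80). With the prior kept, these 3 genes also passed without the Adarb2-rich nuclei (adjusted p = 0.027, 0.0462 and 0.0462). With the prior estimated in that refit none of the 3 did (edgeR adjusted p = 0.911 for each). With Pthlh required in every nucleus and the prior kept, Hs3st4 passed (-0.96, adjusted p = 0.0102), whereas Chrm3 (-0.64, adjusted p = 0.764) and Alcam (-0.49 from -0.495, adjusted p = 0.445) did not. With the prior estimated under that requirement, Hs3st4 did not pass either (edgeR adjusted p = 0.172).

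Nxph1 and Ppargc1a, which fell by less, were among the most abundant genes called. Nxph1 stood at 10762 and 10773 CPM in saline and 7908 and 7800 CPM in cocaine, with a log2 fold change of -0.46 ± 0.08 (-0.455, adjusted p = 0.000186). With 1 library left out this was -0.49 to -0.45. It was -0.37 without the Adarb2-rich nuclei (adjusted p = 0.116 with the prior kept), and -0.50 with Pthlh required in every nucleus (adjusted p = 0.0139 with the prior kept, 0.172 without). Ppargc1a, a coactivator of mitochondrial genes, stood at 5191 and 5594 against 4125 and 3988 CPM (log2 -0.41 ± 0.09, adjusted p = 0.00752), and lost its call without those nuclei (-0.32, adjusted p = 0.312 with the prior kept). Tenm2, a teneurin adhesion gene, stood at 3461 and 3288 against 1851 and 2825 CPM (adjusted p = 0.000994), and lost its call without the cocaine female library (log2 -0.28). Il1rapl2 stood at 8327 and 8917 against 6776 and 6978 CPM (log2 -0.33 ± 0.08, -0.325 before rounding, adjusted p = 0.0282). Its log2 fold change without the Adarb2-rich nuclei, most of which lack the gene, was -0.20 (adjusted p = 0.629 with the prior kept). Col25a1, a transmembrane collagen gene, passed (log2 -1.85 ± 0.41, adjusted p = 0.00787), but its 103 UMIs came from 13 nuclei its groups overlapped, and the call was lost without saline females (log2 -0.33).

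**Figure D5:**
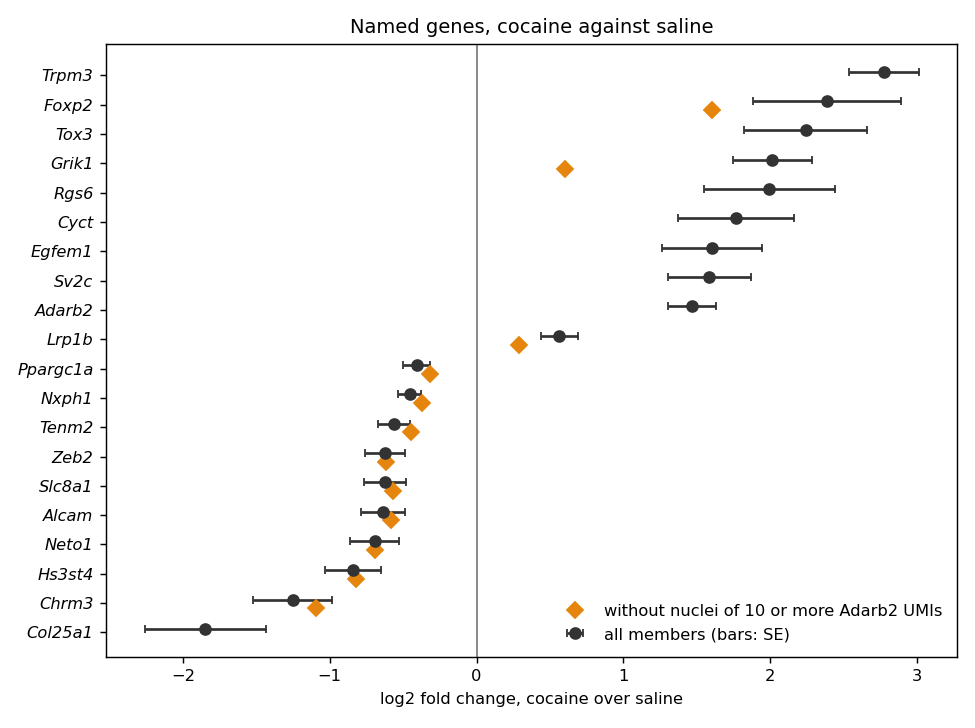
Log2 fold change of cocaine over saline for the 10 higher and 10 lower named genes, with all 183 members (circles, bars are SE) and without the 13 Adarb2-rich nuclei (diamonds, drawn where the gene still passed the filter on low counts). Of the higher genes, 3 have a diamond, each nearer 0 than its circle. Of the lower genes, 9 have one, between -1.09 and -0.32.

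The gene lists, read against a median log2 fold change of -0.0022 and a called share of 0.606% over all 5939 genes, held few calls. Of 11 tested transcription factors Zeb2 alone passed, and the next was Etv1 at 586 and 540 CPM in saline and 367 and 476 CPM in cocaine (adjusted p = 0.373). Of 10 tested collagen and perineuronal net genes Col25a1 passed, 2 were above 0, and the median was -0.30 (-0.299). Of 15 tested genes of the IL1RAPL family and its partners Il1rapl2 passed, and Nrxn3, a neurexin gene, stood at 11176 and 11571 against 9333 and 9580 CPM (adjusted p = 0.0986). Of the 3 tested class markers outside the rule Il1rapl2 passed. Col19a1 stood at 825 and 842 against 735 and 576 CPM (adjusted p = 0.55). Without the Adarb2-rich nuclei and with the prior kept, Zeb2, Chrm3 and the glycosyltransferase gene Galntl6 passed in these and the following lists.

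Receptor and channel lists were mixed. Of 17 tested glutamate receptor subunits Grik1 passed (higher, median of the list -0.09), and Grm7 stood at 128 and 90.5 against 275 and 129 CPM (adjusted p = 0.083). Of 12 tested GABA receptor subunits Gabbr2 passed, at 205 and 159 against 360 and 270 CPM (log2 0.79 ± 0.21, adjusted p = 0.0447, median of the list -0.14 from -0.145). Gabbr2 had a log2 fold change of 0.09 (0.085) without the Adarb2-rich nuclei, and passed in 1 of the 4 fits that left out a library, the one without cocaine males. Of 13 tested neuromodulator receptors Chrm3 passed, and Ntrk3 stood at 231 and 304 against 103 and 247 CPM (adjusted p = 0.209). Of 26 tested fast-spiking ion channel genes none passed in edgeR and 4 had an unadjusted p under 0.05. The nearest, Kcnh7, a potassium channel gene, stood at 1181 and 1267 against 918 and 834 CPM (adjusted p = 0.0746). Of 18 tested vesicle release genes Sv2c passed, and Syt1, the calcium sensor of release, stood at 4863 and 4596 against 3879 and 3947 CPM (adjusted p = 0.247).

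No gene passed among 17 of Kit and PTHrP signalling, 6 of neuregulin and ErbB, 5 of GABA synthesis and uptake, 12 polypeptide GalNAc-transferases and related enzymes, and 6 striatal interneuron class genes. At an unadjusted p under 0.05 these lists held 1, 1, 0, 2 and 3 genes in edgeR, against 6.65% of all tested genes. Lists with a call varied by the same measure, with 9 of 15 in the IL1RAPL family and partners and 8 of 17 among glutamate receptor subunits. The class markers held 2 of 3, transcription factors 3 of 11, collagen and perineuronal net genes 2 of 10 and vesicle release genes 3 of 18. GABA receptor subunits held 1 of 12 and neuromodulator receptors 2 of 13. Pde4d, a cAMP phosphodiesterase gene, stood at 883 and 866 CPM in saline and 650 and 640 CPM in cocaine (adjusted p = 0.213). Erbb4 stood at 15443 and 16751 against 13986 and 14362 CPM (adjusted p = 0.462). Moxd1 stood at 274 and 241 against 140 and 188 CPM (adjusted p = 0.215). None of these 3 genes reached the threshold.

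Immediate-early genes, which mark recent neuronal activity, were mostly too low to test in the members 1 hour after the last injection. Of 38 measured, 4 passed the filter on low counts and none passed the test, with 1 at an unadjusted p under 0.05. Scg2, which encodes a secretogranin, stood at 166 and 140 CPM in saline and 209 and 258 CPM in cocaine (log2 0.58 ± 0.23, adjusted p = 0.48). Homer1 stood at 213 and 200 against 305 and 206 CPM (adjusted p = 0.874). Over the 4 libraries Fos averaged 9.44 ± 3.76 CPM and Nr4a1 10.2 ± 3.28 CPM. Neither passed the filter, so a change in them was not tested in the reported fit. Of 4 tested glucocorticoid-responsive genes none passed, and none had an unadjusted p under 0.05. Sgk1 stood at 215 and 192 against 209 and 170 CPM (adjusted p = 0.998).

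Between the sexes 17 of 5939 genes (0.286%) passed, 6 higher in males and 11 lower, with 372 at an unadjusted p under 0.05. Without the saline female library 35 passed, and without the cocaine male library 11. Kdm5d stood at 0 CPM in both female libraries and at 65.8 and 58.7 CPM in the saline and cocaine male members. Eif2s3y stood at 0 in females and 52.1 and 76.4 CPM in males, and the gene listed as Ddx3 at 0 and 43.9 and 129 CPM. The members therefore matched the sex given by the labels in every library. Slc7a11, the cystine-glutamate exchanger gene, stood at 128 and 44.1 CPM in saline and cocaine females and 162 and 394 CPM in males (log2 1.35 ± 0.28, 1.355 before rounding, adjusted p = 0.00422), and lost its call without either cocaine library (lowest 0.77). Caln1, a calcium-binding protein gene, stood at 259 and 430 against 543 and 558 CPM (log2 0.76, adjusted p = 0.0137), and passed with 1 library left out only where that was cocaine females (0.36 to 1.07). Both lead sub-cluster 3, which took 13 of 100 female and 17 of 83 male members.

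Of the genes lower in males, Unc5d, a netrin receptor gene, was the most widely seen, in 80 members. It stood at 434 and 518 CPM in saline and cocaine females and 173 and 276 CPM in males (log2 -1.14 ± 0.19, adjusted p = 3.26e-05), and it passed without the Adarb2-rich nuclei with the prior kept (adjusted p = 0.00129). With the prior estimated in that refit it did not (edgeR adjusted p = 0.923). Without the saline male library it did not pass (log2 -0.79). Ralyl stood at 472 and 213 against 71.3 and 82.2 CPM (adjusted p = 2.53e-10), with 158 of its 337 UMIs in 1 nucleus. Brinp3 stood at 176 and 151 against 35.6 and 35.2 CPM (adjusted p = 2.46e-06), from 15 nuclei. Col25a1 passed from 13 nuclei, but not without saline females (log2 -0.55). Grik1 also passed (log2 -1.44), but stood at 0.04 without the Adarb2-rich nuclei.

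The effect of cocaine in the members was also compared with that in other classes by testing the difference itself. For spiny neurons that fit used infinite prior degrees of freedom, so a gene's own spread between libraries had no weight in the p-values. DESeq2 called 1 gene there. For Sst/Npy interneurons the prior degrees of freedom were 15.16. Against the Drd2/Ebf1 spiny neurons, 31 of 13547 genes (0.229%) passed, 26 with a more positive effect in the members and 5 with a more negative one. There were 12 without saline females, 18 without cocaine females, 20 without saline males and 55 without cocaine males. Hs3st4 had a log2 fold change of -0.84 in the members and -0.03 in spiny neurons (-0.025), a difference of -0.87 ± 0.21 (adjusted p = 0.0217). Chrm3 had -1.25 against -0.21, a difference of -1.07 ± 0.27 (adjusted p = 0.034). Exosc1, an exosome subunit gene, fell from 36 to 5 UMIs in females and from 19 to 2 in males, a difference of -2.21 ± 0.50 (adjusted p = 0.00749). Each of the 3 lost its call without the saline female library. In all, 4 genes passed without the Adarb2-rich nuclei, and the differences of Hs3st4, Chrm3 and Exosc1 were -0.84, -0.89 and -2.04 (adjusted p = 0.116, 0.51 and 0.0999).

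The more positive differences again involved genes of the Adarb2-rich nuclei. Trpm3 differed by 2.70 ± 0.27 (adjusted p = 5.83e-20), Grik1 by 2.47 ± 0.26 and Adarb2 by 1.63 ± 0.19. Without the Adarb2-rich nuclei the differences of Trpm3 and Grik1 were 1.80 and 1.03 (adjusted p = 0.185 and 1), while Adarb2 chose the nuclei removed and is not read. Without cocaine females Grik1 lost its call (0.89), and Adarb2 was 1.16 to 2.29 with a library left out. Reln, an extracellular glycoprotein gene, had 14 UMIs in saline females, 148 in cocaine females and 0 in both male libraries, so its difference of 3.56 ± 0.34 comes from 1 sex. Dach1 had 0 UMIs in both saline libraries and 19 and 3 in the cocaine libraries, and its fitted difference depends on the value assumed for a count of 0.

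Against Sst/Npy interneurons, 8 of 6189 genes (0.129%) passed, 5 more positive and 3 more negative. Leaving out the saline male library gave 19, and leaving out either cocaine library gave 37. Col19a1 had a log2 fold change of -0.34 in the members and 2.50 in Sst/Npy interneurons, a difference of -2.87 ± 0.44 (-0.338, adjusted p = 0.00898). Its UMIs in Sst/Npy interneurons were 5 and 6 in saline and 77 and 22 in cocaine. Kcnq5, a potassium channel gene, had -0.38 against 1.74 (1.735), a difference of -2.07 ± 0.37 (adjusted p = 0.039), and Neto1 had -0.69 against 0.75, a difference of -1.46 ± 0.27 (adjusted p = 0.0419). Col19a1 passed in each of the 4 fits that left out 1 library, whereas Kcnq5 did not without saline females (-1.49). Neto1 missed the threshold without either saline library, at differences of -1.49 to -1.43 over the 4 fits. All 3 also passed without the Adarb2-rich nuclei (adjusted p = 0.0113, 0.0285 and 0.0434). The Sst/Npy sums came from 26 and 41 nuclei of saline females and males and 66 and 44 of cocaine females and males. Of the more positive genes, Trpm3 and Grik1 did not pass without those nuclei (adjusted p = 0.853 and 0.978).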

How the data were processed

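Single-nucleus RNA-seq used the 10x 3′ kit (v3), per the labels. The authors deposited whole-number UMI counts per gene and nucleus, made with Cell Ranger 6.1.2 per the file headers, with the build rn7 per the submitters' processing notes. The members and lists were chosen with earlier results of these data known. Raw counts were summed per library over nuclei of each class. Tests used edgeR 4.0.16 in R 4.3.3 (quasi-likelihood, TMM, filterByExpr by treatment, sex as covariate, Benjamini-Hochberg at 0.05 over all genes tested), and SE is the log2 fold change divided by the root of F. Differences between classes were fitted with the library as a block. DESeq2 1.42.0 was an alternative. Members were sub-clustered with scanpy 1.11.5 and leidenalg 0.10.2 at resolution 0.5. The edgeR fit was also run on simulated counts. These were drawn as sums per library and not as nuclei, so that run gives no support to calls carried by few nuclei. Of genes that passed, named genes are the 10 higher and 10 lower that ranked first by adjusted p and moved alike in both sexes. From each list, members that passed are named and, where few or none did, those with the smallest p. For sex and class differences, up to 5 per direction are named. Other genes were singled out after their values were seen, among them Hs3st2 and Galntl6. Genes known only by an identifier were counted, not named. Near-identical or overlapping genes can share reads. In all, 15 listed symbols, Pvalb among them, were not matched and not used here. Some items are not reported here.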

Additional observations from a re-analysis of the deposited data

Results flagged for a closer look

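The effect of cocaine in the Pthlh/Kit interneurons was compared with that in other classes by a test of the difference itself (edgeR, library as block). In it, 31 genes passed against spiny neurons and 8 against Sst/Npy interneurons. Up to 5 per direction are named here, 9 against spiny neurons and all 8 against Sst/Npy interneurons. Values are log2 differences, members minus the other class.

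Against the Drd2/Ebf1 spiny neurons, Reln differed by 3.56 (3.564, and -9.71 without cocaine females), Trpm3 by 2.70 (2.703), Grik1 by 2.47 (2.473, and 0.89 to 3.16 with a library left out) and Adarb2 by 1.63 (1.626). Dach1 had a fitted difference of 10.91 (10.908), which is no bound because saline members held 0 UMIs, and 19 of its 22 UMIs came from 1 nucleus. Col25a1 differed by -1.84, from 13 nuclei, Exosc1 by -2.21 (-2.208), Hs3st4 by -0.87 (-0.867) and Chrm3 by -1.07 (-1.073). Of these 9 genes, Col25a1 passed without the 13 Adarb2-rich nuclei (-3.52, adjusted p = 0.00461), but it ranged from -3.23 (-3.235) to -0.29 with a library left out and lost its call without saline females or without cocaine males.

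Against Sst/Npy interneurons, Adarb2 differed by 2.88 (2.876), Trpm3 by 2.16 (2.158), Grik1 by 1.93 (1.925) and Cpne7 by 3.62 (3.621). Dach1 had a fitted difference of 7.04 (7.044), again against 0 UMIs in saline members. Col19a1 differed by -2.87, Kcnq5 by -2.07 (-2.069) and Neto1 by -1.46 (-1.463), and these 3 passed without the Adarb2-rich nuclei.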

How the results depend on the processing

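No paired analysis was possible because the labels give no replicate numbers, beyond the reported fit itself, whose sex covariate sets the 2 libraries of each sex side by side. For cocaine against saline (36 calls), DESeq2 size factors gave 8, DESeq2 2, no filter on low counts 66, a minimum of 10 UMIs 16, no sex covariate 3, doublet removal 18, a Kit and Pthlh limit of 2 83 and of 5 0 (181 of 3355 genes at an unadjusted p under 0.05 in edgeR), Pthlh required 0 (249 of 4366) and equal numbers of nuclei 18. Leaving out 1 library, which also dropped the sex covariate, gave 21 to 50. Without the Adarb2-rich nuclei 0 passed (251 of 5540), or 17 with the prior degrees of freedom kept at 77.08 in place of 6.75; with Pthlh required and that prior, 9 passed. For females against males (17 calls), the same settings gave 9, 1, 25, 2, 7, 12, 42, 2, 2 and 18, a library left out 11 to 35, no Adarb2-rich nuclei 2 (11 with the prior kept) and Pthlh required with that prior 3. Against spiny neurons (31), DESeq2 gave 1, a minimum of 10 UMIs 5, a limit of 5 9, Pthlh required 1, equal numbers 16, removal of the highest nucleus of each gene 16, no Adarb2-rich nuclei 4 and a library left out 12 to 55. Against Sst/Npy interneurons (8) the values were 4 with DESeq2 size factors, 2 with DESeq2, 3 with Pthlh required, 4 with equal numbers, 14 without the highest nucleus, 3 without Adarb2-rich nuclei and 10 to 37 with a library left out. The cause of these shifts was not tested beyond the prior. The log2 share ratio stayed between -1.46 (-1.459) and -0.37 (-0.3695) under all settings tried, and between -1.12 and -0.74 with a library left out.

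Among 70 named genes and comparisons, 727 of 1092 values under other settings kept direction and side of the threshold, and 331 lost the call. Direction changed for Col19a1 (0.007, limit of 5), Moxd1 (0.036, equal numbers), Grm7 (-0.169, no Adarb2-rich nuclei, either prior), Zbtb16 (-0.001 unfiltered, -0.107 with Pthlh required, either prior), Grik1 between sexes (0.591 with a limit of 5, 1.356 with Pthlh required, 0.037 without Adarb2-rich nuclei, each prior), Reln against spiny neurons (-0.557 with Pthlh required, -0.559 without Adarb2-rich nuclei) and Adarb2 without those nuclei, a change set by their choice (-1.714 against spiny neurons, -0.43 against Sst/Npy). With a library left out it changed for Aldh5a1 (-0.36 to 0.643), Homer1 (-0.033 to 0.553), Zbtb16 (-0.194 to 0.286), Sgk1 (-0.285 to 0.031) and Reln (-9.711 to 12.376). The cause was not tested. With 27 to 60 nuclei a library, genes under the filter on low counts were not tested in the reported fit.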
